A study of Rattus norvegicus with 4 samples.

Results

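The genes described here encode ubiquitin-conjugating enzymes and deubiquitinases, and they were read from the gene table of an RNA-seq study of RSC96 cells, an established rat Schwann cell line. Members were taken by symbol: every gene whose name begins with Ube2 and a letter, or with Usp, Otud or Uchl and a number. This gave 82 genes (83 rows, 2 of them for Uchl3) of 17244 symbols in 17778 rows, namely 29 conjugating enzymes and 53 genes named as deubiquitinases. The members comprise 45 Usp, 5 Otud and 3 Uchl genes beside the Ube2 set.

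The control group consisted of 2 libraries of cells that received only the solvent, bovine serum albumin at 0.1%, with no duration stated. The IL-22 group consisted of 2 libraries of cells given 100 ng/ml of recombinant rat IL-22, an IL-10 family cytokine that signals through STAT3, for 48 h. All cells were of generation 4 and had spent a night without serum before either addition. Nothing in the labels says that the libraries of a group came from separate cultures, so p-values rest on a spread among libraries that may be technical alone. The libraries are called control 1, control 2, IL-22 1 and IL-22 2. The question posed by the series title is how IL-22 bears on Schwann cell growth and on regenerating nerve.

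Ubiquitin is attached to proteins by a cascade. An activating enzyme (E1) charges ubiquitin, a conjugating enzyme (E2) receives it on a cysteine, and a ligase (E3) brings the E2 to the substrate. Related cascades attach the ubiquitin-like proteins SUMO, NEDD8 and ISG15 with E2s of their own. Deubiquitinases remove the modifier again and so edit signals, rescue substrates from the proteasome and recycle ubiquitin. Several members are tied to mitosis and DNA repair through the anaphase-promoting complex (APC/C) and the Fanconi anaemia pathway, and others to interferon and NF-kappaB signalling.

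Promoter windows of 67 of the 82 members were read from RefSeq's rat sequences (build GRCr8). The entries of 15 were missing, among them Otud6b, Otud7b, Ube2c, Ube2d4, Ube2v2, Usp12, Usp18, Usp24, Usp42, Usp43, Usp44, Usp49, Usp7 and Usp9x. The 250 bases before the annotated start are shown for Ube2t and Usp1, which act on opposite sides of the same Fanconi reaction and both fell, for Ube2l6, the ISG15 conjugating enzyme, which fell, and for Uchl1 and Ube2h, which rose. Capitals mark matches, on either strand, to a CCAAT box (CCAAT), an E2F site (TTTCGCGC or TTTGGCGC), a STAT site (TTCNNNGAA), a cell cycle homology region (TTTGAA) or a C/EBP-ATF site (TGATGNAA).
Ube2t, chr13:48954916-48955165, plus strand: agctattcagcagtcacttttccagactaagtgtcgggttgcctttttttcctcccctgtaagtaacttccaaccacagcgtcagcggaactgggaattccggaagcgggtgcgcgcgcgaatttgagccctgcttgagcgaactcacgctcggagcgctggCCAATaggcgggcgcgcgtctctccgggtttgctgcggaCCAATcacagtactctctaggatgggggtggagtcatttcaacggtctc
Usp1, chr5:118702806-118703055, plus strand: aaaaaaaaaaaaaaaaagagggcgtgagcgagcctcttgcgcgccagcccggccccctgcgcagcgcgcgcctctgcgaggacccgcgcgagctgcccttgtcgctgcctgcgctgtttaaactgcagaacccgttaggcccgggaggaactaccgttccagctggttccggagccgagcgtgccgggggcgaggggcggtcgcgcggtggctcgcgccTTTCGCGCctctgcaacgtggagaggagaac
Ube2l6, chr3:90279455-90279704, plus strand: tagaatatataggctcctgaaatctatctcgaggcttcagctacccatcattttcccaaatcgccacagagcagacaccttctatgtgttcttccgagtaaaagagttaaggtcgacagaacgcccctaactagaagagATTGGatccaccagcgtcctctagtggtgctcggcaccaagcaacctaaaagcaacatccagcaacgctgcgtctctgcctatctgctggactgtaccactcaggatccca
Uchl1, chr14:41849418-41849667, minus strand: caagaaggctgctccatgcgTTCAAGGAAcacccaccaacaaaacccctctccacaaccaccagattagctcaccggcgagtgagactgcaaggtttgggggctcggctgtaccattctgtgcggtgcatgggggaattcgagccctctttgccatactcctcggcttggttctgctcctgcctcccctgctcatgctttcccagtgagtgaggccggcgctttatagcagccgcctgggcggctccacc
Ube2h, chr4:59897584-59897833, minus strand: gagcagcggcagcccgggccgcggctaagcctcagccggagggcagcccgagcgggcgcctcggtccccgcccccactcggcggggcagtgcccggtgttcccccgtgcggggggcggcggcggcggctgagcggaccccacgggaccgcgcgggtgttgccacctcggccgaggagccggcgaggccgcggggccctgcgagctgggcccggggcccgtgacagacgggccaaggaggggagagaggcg

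Matches of these letters were no more frequent before the members' starts than before others, apart from a single E2F match. The E2F letters TTTCGCGC stood before Usp1 alone among 68 member windows, from -31 to -24, and in 0.248% of all 33469 windows of that length. TTTGGCGC stood in none of the members' windows and in 0.412% of all. A CCAAT box was held by 17 of 68 member windows (25.0%) against 34.0% of all windows, and Ube2t held 2 of them, from -88 to -84 and from -49 to -45. Windows with the STAT letters were those of Uchl1 (from -230 to -222) and Ube2s (from -199 to -191), against 7.67% of all windows. TTTGAA was held by 6 member windows (8.82%) against 16.2% of all, and the C/EBP-ATF letters by the window of Usp26 alone, against 3.40% of all. A match is a description of these letters and not of a bound site.

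Levels are FPKM, a unit that divides fragments by gene length and library size, so they can be compared between genes. The depth behind them is not known in reads, and the spacing of the lowest values put control 2 at 1.28 times and both IL-22 libraries at 1.08 times the depth of control 1. Gene rows above 0 numbered from 11196 to 11641 per library. Socs3, the feedback inhibitor that STAT3 induces, measured 161 and 166 FPKM in controls and 498 and 533 FPKM with IL-22. Of 13 Schwann lineage markers with a row, Sox10, S100b and Ngfr did not exceed 0.119 FPKM in any of the libraries, and Cdh19, Gap43 and Mbp were listed at 0. Of the 5 that were tested, limma called Egr2 (2.06), Dhh (1.11), Pmp22 (1.08) and Erbb3 (0.55) higher with IL-22 and Gfap (-0.70) lower. The 13 markers together measured 25.5 and 27.0 FPKM in controls and 56.6 and 59.5 FPKM with IL-22, most of it from Pmp22, and the part of this shift in the results was not tested. In bulk RNA fewer cells of a type and less RNA per cell cannot be told apart. Macrophage, endothelial and neuronal marker lists summed to at most 6.25, 1.84 and 0.19 FPKM in any library, while 4 of 6 fibroblast markers were tested, with sums from 397 to 407 FPKM.

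Conjugating enzymes were the more abundant class. The 26 that were tested had a median of 42.7 FPKM over the 4 libraries, against 18.3 FPKM for the 48 tested deubiquitinases and 18.2 FPKM for all 9485 tested rows. The test took rows averaging 1 FPKM or more, which 74 of the 82 members did. Ube2s, which lengthens ubiquitin chains on APC/C substrates, stood at 536 FPKM, and the chain-building cofactor Ube2v1 (241 FPKM), Ube2c (193 FPKM) and the NEDD8 enzyme Ube2m (165 FPKM) were also high. Ube2l3 and Ube2n stood at 112 FPKM each, and the highest deubiquitinases were Uchl1 and Usp5 (93.5 FPKM each) and Usp22 (90.3 FPKM). Among tested members the lowest mean was 2.39 FPKM.

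The 8 members below the limit were listed at 0 or measured at most 0.402 FPKM in any library. An exact 0 in a table of FPKM without reads can be a failed estimate, and the broadly expressed deubiquitinase gene Brcc3 was also listed at 0 in all 4 libraries. Ube2d4, Ube2q2l, Ube2ql1, Usp26 and Usp43 were listed at 0 in all 4 libraries. Usp13, a relative of Usp5, measured from 0.0504 to 0.0929 FPKM. Usp29 measured 0.345 and 0.388 FPKM in controls and 0.230 and 0.194 FPKM with IL-22. Usp51, which can replace Usp22 in histone deubiquitination, measured 0.402 and 0.224 FPKM in controls and was listed at 0 in both IL-22 libraries.

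After IL-22 more members were lower than higher. By limma on log2(FPKM + 1), with p-values adjusted over all 9485 tested rows by the Benjamini-Hochberg method and a threshold of 0.05, 10 of 74 members were higher and 30 lower. Among all tested rows 58.4% were called, 27.6% higher and 30.8% lower. Of the members 54.1% were called, 13.5% higher and 40.5% lower, so the share called was close to that of all rows and the split leaned further to lower levels. The median difference, IL-22 minus control, was -0.19 over the members and -0.02 over all tested rows. Groups did not overlap for 60 of 74 members (81.1%), where the share over all tested rows was 80.1%.

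Most changes were small. The median absolute difference was 0.27 on the log2(FPKM + 1) scale for members and 0.32 for all tested rows. Past the threshold with a difference of at least 1 were Usp44 and Ube2e2 above control and Otud6b below it. Over all tested rows 4.68% were called higher by that much and 2.84% lower. Of the 40 calls 30 held under each of the alternative settings and left-out libraries that were run, and the members that lost a call are named with their groups. On this scale the difference of a low gene is understated.

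**Figure D1:**
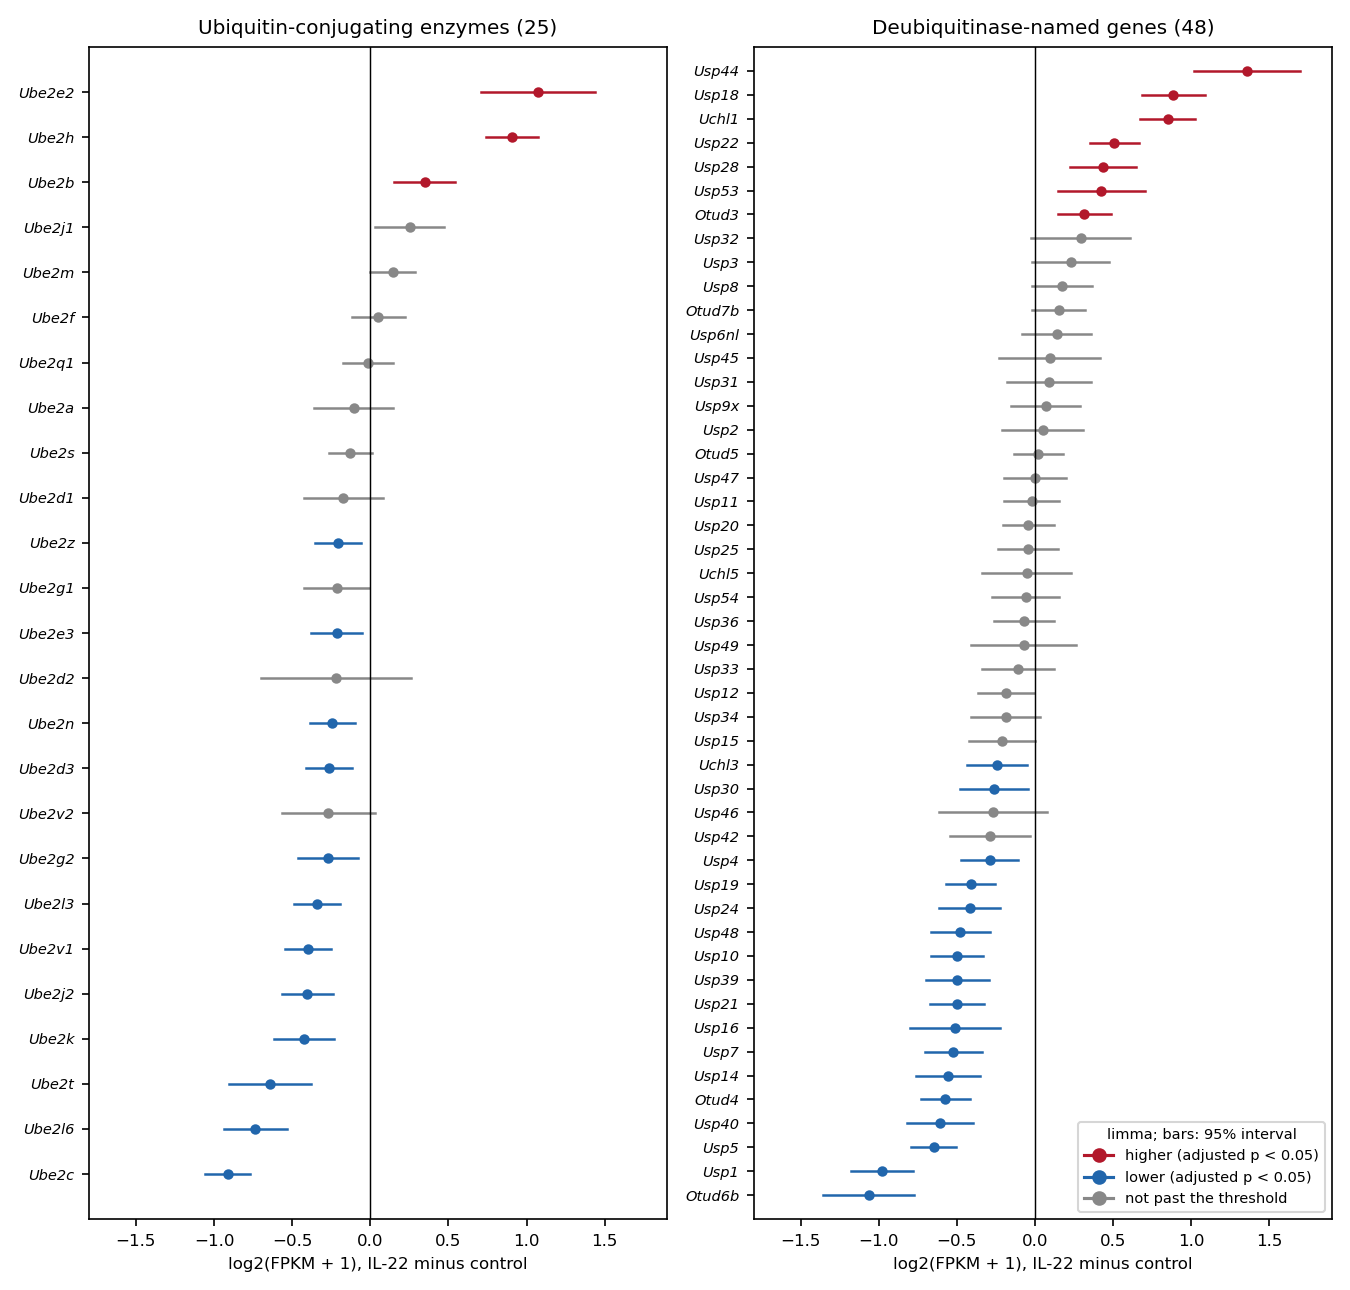
Difference on the log2(FPKM + 1) scale, IL-22 minus control, for 25 of the 26 tested conjugating enzymes (left) and 48 tested deubiquitinase-named genes (right), with points for the limma estimate, bars for its 95% interval and colour for the call. In the left panel 3 genes were higher and 12 lower, and in the right panel 7 were higher and 17 lower.

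**Figure D2:**
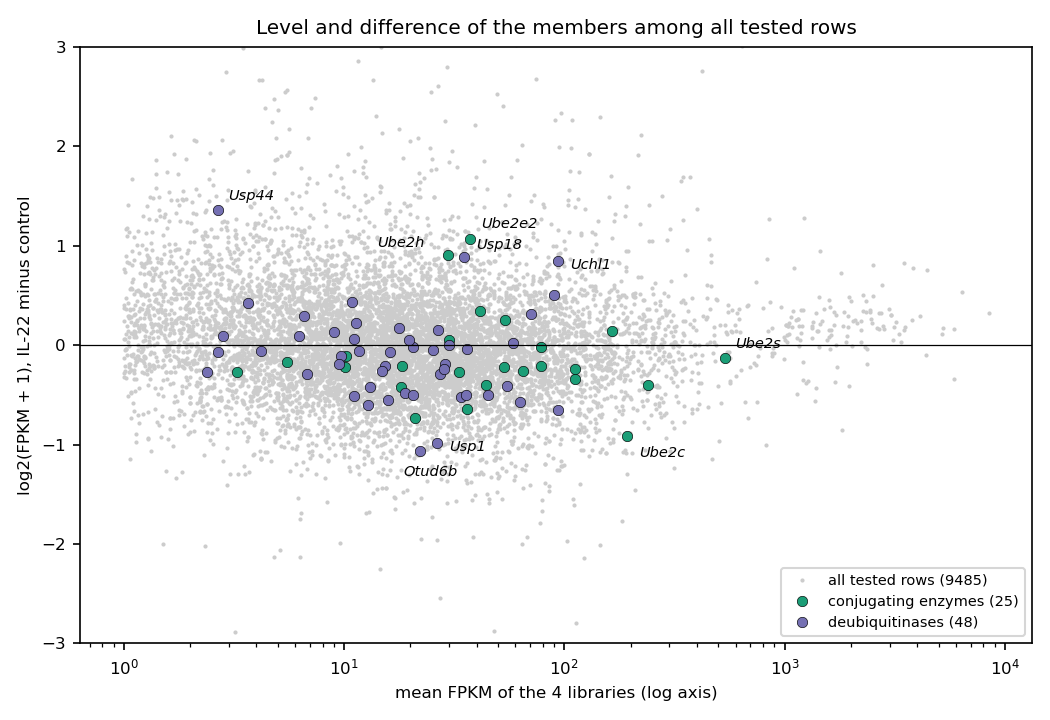
Mean FPKM of the 4 libraries (log axis) against the difference, IL-22 minus control, for all 9485 tested rows (grey, with 23 rows beyond the axis), 25 conjugating enzymes (green) and deubiquitinases (purple). The members lie within the cloud of all rows, from -1.06 for Otud6b to 1.36 for Usp44.

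Against 27.6% higher and 30.8% lower of all tested rows, conjugating enzymes gave 3 (11.5%) and 13 (50%) of 26, with a median of -0.22. With control 2 left out the number higher was 5, since Ube2j1 and Ube2m then passed. Their summed level was 2410 and 2453 FPKM in controls and 2057 and 2094 FPKM with IL-22. Deubiquitinases gave 7 higher (14.6%) and 17 lower (35.4%, near the share of all rows) of 48, with a median of -0.07. Their summed level was 1276 and 1270 FPKM in controls and 1200 and 1191 FPKM with IL-22. Both sums were lower in each IL-22 library than in each control library.

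The E2s of mitosis and Fanconi repair fell in part. Ube2c, which starts ubiquitin chains on mitotic substrates of the APC/C, measured 248 and 256 FPKM in controls and 129.8 and 137 FPKM with IL-22. Both IL-22 libraries lay far below both controls, a 0.530-fold level (-0.91 ± 0.06, difference and standard error on the log2(FPKM + 1) scale, limma adjusted p = 4.99e-06). Ube2s, which extends the chains that Ube2c starts, measured 570 and 551 FPKM in controls and 506 and 519 FPKM with IL-22. The groups did not overlap, but the difference did not pass (-0.13, 95% interval -0.27 to 0.01, limma adjusted p = 0.0955), except with quantile normalization. The interval of Ube2s lies wholly above that of Ube2c (-1.05 to -0.77), and the difference between these genes was not tested.

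Ube2t, the E2 that works with the ligase subunit Fancl to ubiquitinate Fancd2, measured 40.2 and 48.7 FPKM in controls and 31.0 and 25.3 FPKM with IL-22. It fell to 0.633-fold, with wide spread in both groups but no overlap (-0.64 ± 0.12, limma adjusted p = 0.00139). Usp1, the deubiquitinase that reverses this reaction on Fancd2 and on the replication clamp Pcna, measured 37.7 and 33.2 FPKM in controls and 17.8 and 17.1 FPKM with IL-22. It fell to 0.492-fold (-0.98 ± 0.09, limma adjusted p = 2.16e-05). Its cofactor Wdr48 measured 25.6 and 28.1 FPKM in controls and 24.9 and 23.4 FPKM with IL-22 and did not pass (95% interval -0.33 to 0.04).

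Of 16 tested APC/C subunits and coactivators 0 were higher and 10 lower (62.5%, against 30.8% of all tested rows), with a median of -0.34. Among those lower was the coactivator Cdc20 (202 and 199 FPKM in controls, 97.0 and 96.9 FPKM with IL-22). The inhibitor Fbxo5 (-1.12) and the subunit Anapc10 (-0.57) were lower too. The call of Anapc10 was lost with control 2 left out (limma adjusted p between 1.40e-05 and 0.0776 in 13 alternatives). Of 8 tested Fanconi and Rad18-type genes 0 were higher and 3 lower, with a median of 0.02, and this share lower (37.5%) was near the 30.8% of all tested rows. These were the core subunit Fanca (-1.23), the substrate Fancd2 (-0.58) and Fancl itself (-0.43).

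**Figure D3:**
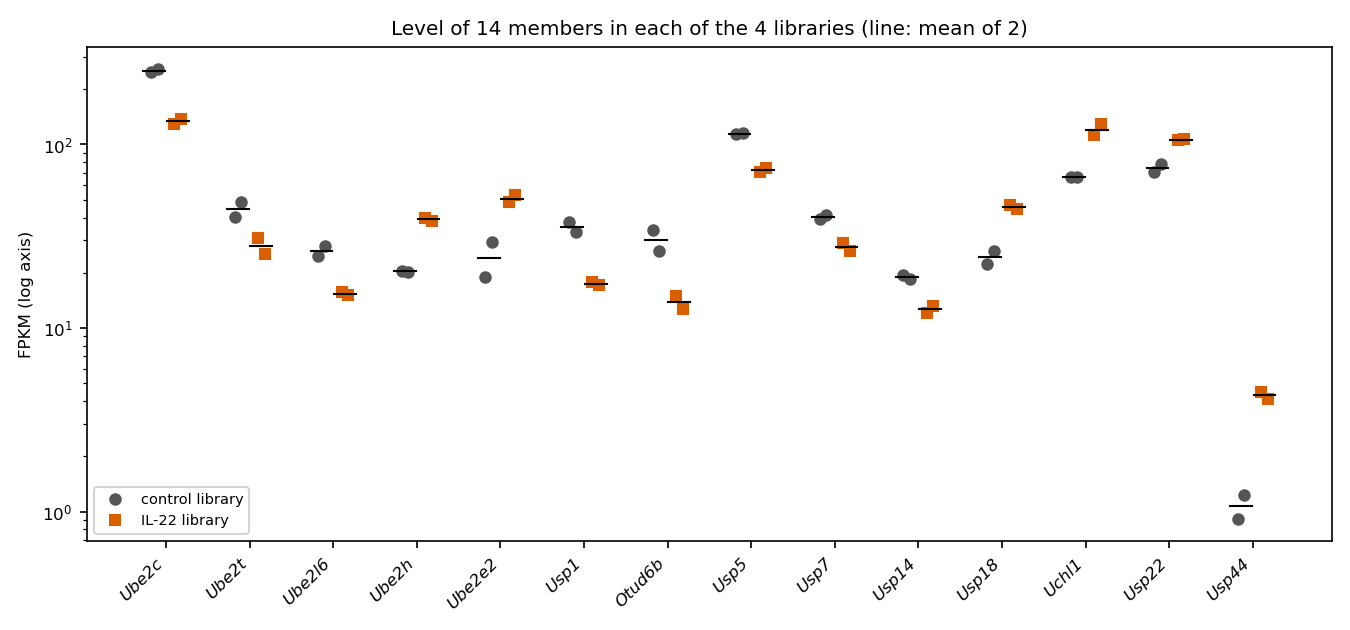
FPKM (log axis) of 14 members in each library, with circles for the 2 control libraries, squares for the 2 IL-22 libraries and lines for group means. The groups are separate for each of these genes, and the spread within a group is widest for Ube2e2 in controls, at 19.0 and 29.3 FPKM.

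Of the 4 tested E2s of ubiquitin-like modifiers 0 were higher and 2 lower (50%, against 30.8% of all tested rows). Ube2l6, the E2 that transfers the interferon-induced modifier ISG15, measured 24.7 and 28.0 FPKM in controls and 15.7 and 15.1 FPKM with IL-22 and fell to 0.584-fold (-0.74 ± 0.09, limma adjusted p = 0.000134). Isg15 itself fell from 45.9 and 42.1 FPKM to 25.1 and 20.4 FPKM. Uba7, its E1, measured 4.84 and 4.97 FPKM in controls and 2.94 and 3.96 FPKM with IL-22 (-0.42). That call was lost without the filter, and with control 1, control 2 or IL-22 1 left out (limma adjusted p between 0.00967 and 0.226 in 12 alternatives).

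Usp18, the protease that removes ISG15 and also restrains signalling of the type I interferon receptor, went the other way from these genes. It measured 22.4 and 26.2 FPKM in controls and 46.7 and 44.5 FPKM with IL-22. This 1.88-fold rise (0.88 ± 0.09, limma adjusted p = 4.52e-05) held under each alternative run. Thus the modifier and conjugating enzyme of ISG15 were lower and its deconjugase higher in the same libraries. The activating enzyme Uba7 was also called lower, but that call was lost under 4 of 12 alternatives.

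Several genes of the SUMO pathway fell. Both subunits of the SUMO E1 fell, Sae1 from 166 and 147 FPKM to 100.4 and 99.2 FPKM and Uba2 from 102 and 90.7 FPKM to 66.3 and 61.4 FPKM. The modifier genes Sumo2 (-0.59) and Sumo3 (-0.53) fell. Among the tested SUMO proteases Senp3 fell (-0.63) and Senp2, Senp6 and Senp7 did not pass.

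NEDD8 activates cullin ligases, and its E1 subunits, modifier, E2s and the protease Senp8 showed no call. Cops5, a deconjugase outside this set, was lower (-0.19, limma adjusted p = 0.0302), a call not checked under the alternatives. Ube2m measured 152 and 163 FPKM in controls and 172 and 175 FPKM with IL-22 (0.14, 95% interval 0.00 to 0.29, limma adjusted p = 0.0846), and passed only with control 2 left out. Ube2f measured 29.7 and 29.2 FPKM in controls and 31.3 and 29.8 FPKM with IL-22 (95% interval -0.12 to 0.22). The E1 subunits Uba3 and Nae1, the modifier Nedd8 and the protease Senp8 did not pass either, with differences from -0.15 to 0.10. For ubiquitin itself, the E1 gene Uba1 fell (-0.27), and Ubb (4257 and 4813 FPKM in controls, 4109 and 4323 FPKM with IL-22) and the fusion gene Rps27a passed only with quantile normalization.

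**Figure D4:**
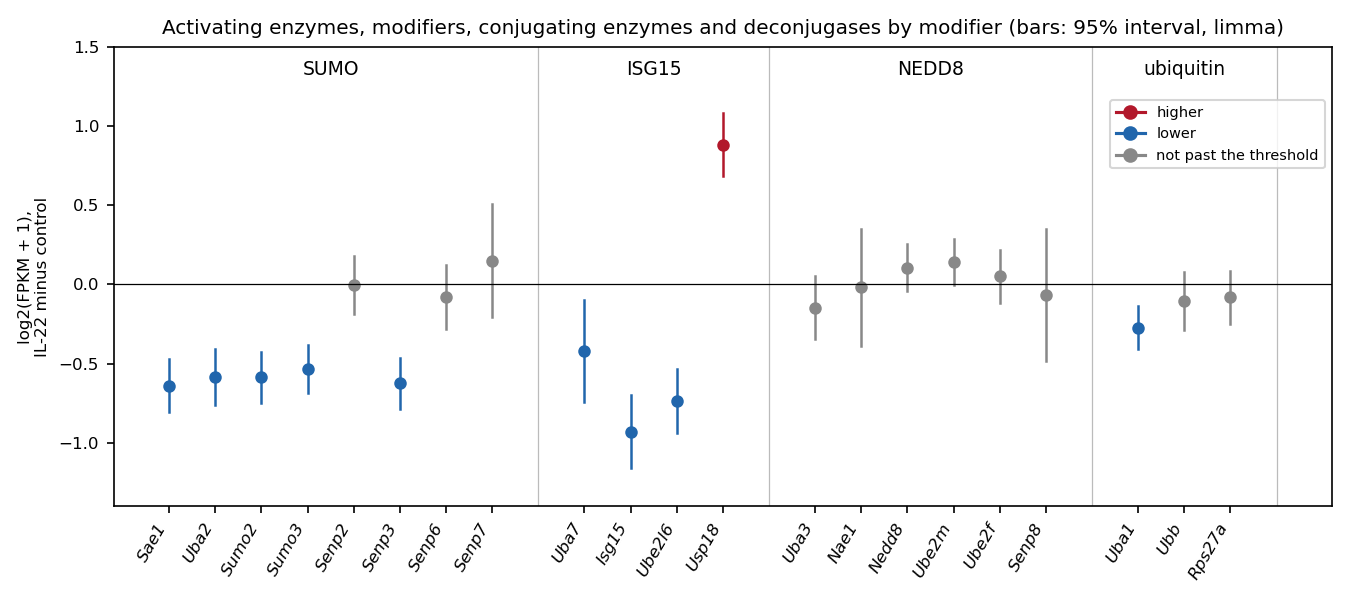
Difference on the log2(FPKM + 1) scale, IL-22 minus control, for selected activating enzymes, modifiers, conjugating enzymes and deconjugases of SUMO, ISG15, NEDD8 and ubiquitin, with bars for the 95% interval from limma. ISG15 genes lie below 0 except Usp18 at 0.88, and none of the NEDD8 genes shown passed.

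Ube2e2 and Ube2h were the conjugating enzymes with the largest rises. Ube2e2, a broadly acting E2, measured 19.0 and 29.3 FPKM in controls and 48.4 and 53.1 FPKM with IL-22. The rise was 2.10-fold and its size uncertain, since the controls differed (1.07 ± 0.16, 95% interval 0.71 to 1.44, limma adjusted p = 0.000473). Ube2h, the E2 of the CTLH ligase complex, measured 20.5 and 20.2 FPKM in controls and 39.7 and 38.4 FPKM with IL-22, a tighter 1.92-fold rise (0.91 ± 0.07, limma adjusted p = 1.31e-05). Paralogs of Ube2e2 in the same broad class did not rise: Ube2d3 and Ube2e3 were lower by limma and Ube2d1 and Ube2d2 did not pass. Ube2d2 had the widest interval of the tested members (-0.70 to 0.26), with IL-22 libraries at 12.0 and 6.86 FPKM, and passed with IL-22 1 left out (limma adjusted p between 0.00559 and 0.912 in 13 alternatives).

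Both lower calls were lost under at least 1 alternative. Ube2e3 measured 59.96 and 54.5 FPKM in controls and 49.2 and 48.9 FPKM with IL-22 (-0.22), a call lost under 6 of 13 alternatives, including with control 1, IL-22 1 or IL-22 2 left out (limma adjusted p between 0.0165 and 0.168). Ube2d3 measured 71.8 and 69.7 FPKM in controls and 59.3 and 58.3 FPKM with IL-22 (-0.26), a call lost with IL-22 2 left out (limma adjusted p between 0.00289 and 0.0638 in 13 alternatives).

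Of the RAD6-type E2s, which ubiquitinate histones and Pcna, Ube2b rose and Ube2a did not pass. Ube2b measured 33.4 and 39.1 FPKM in controls and 45.8 and 46.7 FPKM with IL-22 (0.35 ± 0.09, limma adjusted p = 0.00744). Its near-identical paralog Ube2a measured 9.85 and 11.5 FPKM in controls and 9.17 and 10.5 FPKM with IL-22, with overlapping groups. Reads of such close copies may have been split between them, which was not tested.

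Ube2n and its partner Ube2v1, which together build the non-degradative chains of NF-kappaB signalling, were lower. Ube2v1 measured 265 and 283 FPKM in controls and 204 and 212 FPKM with IL-22 (-0.40 ± 0.06, limma adjusted p = 0.000659). Ube2n measured 119.8 and 123 FPKM in controls and 99.99 and 105 FPKM with IL-22 (-0.24), a call lost with IL-22 1 left out (limma adjusted p between 0.00333 and 0.103 in 13 alternatives). Ube2v2, the alternative partner in DNA repair, measured 3.54 and 3.75 FPKM in controls and 2.71 and 3.01 FPKM with IL-22 and did not pass, except with quantile normalization or without the trend.

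The ligases and adaptors of these signalling chains gave 3 higher (23.1%) and 2 lower (15.4%) of 13 tested. All tested rows gave 27.6% and 30.8%. Birc3, an NF-kappaB-induced ligase of the tumour necrosis factor receptor complex, rose from 1.66 and 1.49 FPKM to 9.03 and 7.78 FPKM (1.87). Rnf168, which marks DNA breaks, fell (-0.85), as did Sharpin (-0.48), a subunit of the linear chain ligase.

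E2s of endoplasmic reticulum (ER) degradation and of SCF-type ligases gave 0 higher and 3 lower of 5. The share lower was 60%, against 30.8% of all tested rows. Ube2j2, a membrane-anchored ER enzyme, measured 52.1 and 48.8 FPKM in controls and 37.8 and 38.0 FPKM with IL-22 (-0.40 ± 0.07, limma adjusted p = 0.00119). Its paralog Ube2j1, also anchored in the ER membrane, measured 44.5 and 54.3 FPKM in controls and 56.4 and 61.2 FPKM with IL-22. That difference lay just outside the threshold (0.25, 95% interval 0.03 to 0.47, limma adjusted p = 0.0502) and passed under 8 of 13 alternatives, 2 of them with control 2 left out and with IL-22 1 left out (limma adjusted p between 0.00562 and 0.288). The paralogs thus had intervals that did not overlap, and the difference between them was not tested.

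Ube2k, which builds degradative chains, fell from 20.2 and 21.5 FPKM to 15.5 and 15.03 FPKM (-0.42). Ube2g2, an E2 of ER degradation, measured 38.4 and 34.5 FPKM in controls and 31.4 and 28.7 FPKM with IL-22 (-0.27), a call lost under 4 of 13 alternatives, among them with control 1 left out and with IL-22 2 left out (limma adjusted p between 0.00571 and 0.155). Ube2g1 measured 20.1 and 19.4 FPKM in controls and 15.8 and 18.1 FPKM with IL-22 and did not pass.

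Of 7 tested genes of other ER degradation machinery 3 were higher (42.9%) and 2 lower (28.6%), against 27.6% and 30.8% of all tested rows. Herpud1, an ER stress-induced adaptor, rose from 21.6 and 23.2 FPKM to 50.8 and 50.4 FPKM (1.14), and the ligase scaffold Sel1l rose (0.45). Derl3, a channel component, measured 2.70 and 2.83 FPKM in controls and 0.960 and 1.73 FPKM with IL-22 (-0.70), a call lost with control 1, control 2 or IL-22 1 left out (limma adjusted p between 0.000952 and 0.0844 in 12 alternatives). SCF and cullin core genes gave 0 higher and 6 lower of 16 tested, and this share lower (37.5%) was near the 30.8% of all tested rows. Skp2 (-0.93), the adaptor Skp1 (-0.58) and Cdc34 (-0.53) fell most. Cdc34 is itself an E2, whose symbol lies outside the name rule.

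Among the remaining E2s, Ube2l3, which serves HECT and RBR ligases, fell from 122 and 129 FPKM to 98.7 and 98.8 FPKM (-0.34 ± 0.06, limma adjusted p = 0.00167). Ube2z, charged by the alternative E1 Uba6, measured 85.4 and 82.4 FPKM in controls and 73.1 and 71.9 FPKM with IL-22 (-0.21). The call of Ube2z was lost under 5 of 13 alternatives, among them with control 1, IL-22 1 or IL-22 2 left out (limma adjusted p between 0.0142 and 0.139). Ube2q1 measured 79.0 and 79.1 FPKM in controls and 74.8 and 82.1 FPKM with IL-22, with a 95% interval from -0.17 to 0.15. Activating enzymes gave 0 higher and 5 lower (62.5%) of 8 tested, among them Sae1, Uba2, Uba1 and Uba7. Over all tested rows 30.8% were lower.

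Deubiquitinases that serve the proteasome or recycle ubiquitin gave 1 higher (20%) and 3 lower (60%) of 5, against 27.6% and 30.8% of all rows. Usp5, which takes apart free ubiquitin chains, measured 114 and 115 FPKM in controls and 70.9 and 74.4 FPKM with IL-22. This fall to 0.635-fold was among the most precise (-0.65 ± 0.06, limma adjusted p = 3.97e-05). Usp14, bound to the proteasome's regulatory particle, fell from 19.6 and 18.5 FPKM to 12.0 and 13.2 FPKM (-0.56 ± 0.09, limma adjusted p = 0.000736). Uchl5, the other proteasome-bound member, stayed between 3.85 and 4.47 FPKM in all libraries, with a 95% interval from -0.34 to 0.23.

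Uchl1, a hydrolase best known for its abundance in neurons, was the member of that group that rose. It measured 66.5 and 66.3 FPKM in controls and 112 and 129 FPKM with IL-22, a 1.82-fold rise (0.85 ± 0.08, limma adjusted p = 2.58e-05). Of the neuronal markers Rbfox3, Elavl4, Snap25 and Tubb3 none exceeded 0.119 FPKM in any library. Uchl3 was listed in 2 rows of nearly equal values. In the row with the higher mean it measured 30.9 and 30.8 FPKM in controls and 27.7 and 24.2 FPKM with IL-22 (-0.24), a call lost under 6 of 13 alternatives, among them with control 1, control 2 or IL-22 2 left out (limma adjusted p between 0.0170 and 0.299).

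Deubiquitinases of chromatin, the cell cycle and DNA damage gave 3 higher and 6 lower of 16. Their share lower (37.5%) was near the 30.8% of all tested rows, and their share higher was 18.75% against 27.6%. The largest fall after Usp1 was that of Otud4 (73.0 and 77.8 FPKM in controls, 51.4 and 49.2 FPKM with IL-22), an OTU-family enzyme. Usp7, which stabilizes Mdm2 and p53, fell from 39.1 and 41.1 FPKM to 29.1 and 26.1 FPKM (-0.52 ± 0.08, limma adjusted p = 0.000552), and Gmps, an enzyme that binds it, fell from 21.4 and 18.6 FPKM to 11.4 and 9.52 FPKM (-0.88). The histone deubiquitinases Usp21 (-0.50) and Usp16 (-0.51) and the nuclear enzyme Usp48 (-0.48) were also lower. Usp16 measured 14.3 and 12.2 FPKM in controls and 10.1 and 7.92 FPKM with IL-22, and its call was lost without the filter and with control 1 left out (limma adjusted p between 0.000144 and 0.110 in 13 alternatives).

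Usp22, the deubiquitinase of the SAGA coactivator complex, rose. It measured 71.0 and 77.9 FPKM in controls and 105 and 107 FPKM with IL-22 (0.51 ± 0.07, limma adjusted p = 0.000272). The SAGA genes Eny2 (-0.42) and Ccdc101 (-0.62), listed here as cofactors of deubiquitinases, were lower. Ccdc101 lost its call without the filter and with control 2 left out (difference from -0.90 to -0.34 in 13 alternatives). Usp28, which stabilizes Myc, rose from 9.09 and 9.21 FPKM to 12.3 and 13.1 FPKM (0.43).

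Usp44 had the largest rise of the members. This regulator of the mitotic checkpoint measured 0.916 and 1.23 FPKM in controls and 4.46 and 4.13 FPKM with IL-22. The ratio of means was 4.00, and the difference was 1.36 ± 0.15 (limma adjusted p = 7.55e-05), although the gene stayed at a low level in both groups. Usp3 measured 11.4 and 9.40 FPKM in controls and 12.5 and 12.1 FPKM with IL-22 and passed only with control 1 left out. Usp11, Usp36, Usp45, Usp47 and Usp49 did not pass, with differences from -0.07 to 0.09. Usp42 (-0.29, limma adjusted p = 0.0529) lay just outside the threshold and passed under 5 of 13 alternatives.

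Deubiquitinases of interferon and NF-kappaB signalling gave few calls apart from Usp18. Of 8 tested 1 was higher and 1 lower, each 12.5%, against 27.6% and 30.8% of all tested rows. Usp4 measured 31.1 and 29.0 FPKM in controls and 25.1 and 23.6 FPKM with IL-22 (-0.29), a call lost with control 1 or IL-22 2 left out (limma adjusted p between 0.00447 and 0.0933 in 13 alternatives). Usp25 (95% interval -0.23 to 0.14), Usp2 (-0.21 to 0.31), Otud5 (-0.14 to 0.18), Usp31 (-0.18 to 0.36) and Usp15 (-0.43 to 0.00) did not pass. Otud7b, a negative regulator of noncanonical NF-kappaB signalling, measured 25.0 and 25.4 FPKM in controls and 28.6 and 27.6 FPKM with IL-22 and passed only with quantile normalization.

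Deubiquitinases of membranes and organelles gave 0 higher and 2 lower of 7, a share lower of 28.6% against 30.8% of all tested rows. Usp19, anchored in the ER membrane, fell from 64.6 and 61.3 FPKM to 46.5 and 47.5 FPKM (-0.41 ± 0.07, limma adjusted p = 0.000811). Usp30, which opposes the ubiquitination of mitochondria, measured 15.6 and 17.1 FPKM in controls and 12.7 and 14.2 FPKM with IL-22 (-0.26). Its call was lost under 7 of 13 alternatives, among them size factors and omitting control 1, control 2 or IL-22 1 (limma adjusted p between 0.0256 and 0.250). Usp8, the endosomal enzyme, measured 16.2 and 17.2 FPKM in controls and 19.5 and 18.4 FPKM with IL-22 and did not pass, while its binding partner Stam rose from 16.8 and 19.1 FPKM to 34.6 and 32.4 FPKM (0.87). Usp32 passed under 2 of 13 alternatives, and Usp9x, Usp20 and Usp33 under none of them.

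The remaining OTU and USP enzymes held the largest fall. Otud6b measured 34.3 and 26.3 FPKM in controls and 15.03 and 12.7 FPKM with IL-22, a 0.458-fold level (-1.06 ± 0.13, limma adjusted p = 0.000134). Usp40 (16.3 and 15.3 FPKM in controls, 10.4 and 9.67 FPKM with IL-22), Usp24 (-0.42) and Usp10 (-0.50) also fell. Usp10 binds the stress-granule protein G3bp1, which fell as well (-0.54). Otud3 rose from 66.8 and 59.5 FPKM to 78.6 and 78.8 FPKM (0.31 ± 0.07, limma adjusted p = 0.00575). Usp12 and Usp34 did not pass, and Usp46 passed only with quantile normalization.

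Some genes that carry the USP name have little or no protease activity. Usp39, a splicing factor, fell from 24.7 and 23.8 FPKM to 15.9 and 17.9 FPKM (-0.50 ± 0.09, limma adjusted p = 0.00122). Usp53, long classed as inactive, measured 2.96 and 3.01 FPKM in controls and 4.40 and 4.28 FPKM with IL-22 (0.42), a call that quantile normalization removed, as did the fit with IL-22 1 or IL-22 2 left out (limma adjusted p between 0.00468 and 0.0720 in 12 alternatives). Its paralog Usp54 (95% interval -0.27 to 0.15) and Usp6nl, a GTPase-activating protein rather than a deubiquitinase (-0.08 to 0.36), did not pass.

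Deconjugases outside the name rule gave 3 higher (14.3%) and 4 lower (19.0%) of 21 tested, with a median of -0.06. Otub2, an OTU enzyme, rose from 2.31 and 1.98 FPKM to 5.35 and 6.26 FPKM (1.11), and the SUMO isopeptidase Uspl1 fell (-0.57). Ubiquitin and ubiquitin-like genes gave 0 higher and 7 lower (46.7%) of 15, with the transfer RNA modifier Urm1 (-0.67) beside Isg15 and Sumo2. Cofactors of deubiquitinases gave 1 higher (10%) and 5 lower (50%) of 10. Shares over all tested rows were 27.6% higher and 30.8% lower.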

How the data were processed

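Poly(A)-selected RNA was sequenced on HiSeq, per the labels' protocols. FPKM values were deposited for each of the 4 libraries. TopHat2, Cuffdiff and the build rn5 are named, without version or role, per the submitters' processing notes. The annotation, filters, use of strand and any scaling across libraries: not given in the sources used here. The lncRNA table was left unused.

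The test was limma 3.58.1 (R 4.3.3) on log2(FPKM + 1) of the 9485 rows whose mean reached 1 FPKM, with a trended eBayes, no covariates, two-sided p-values, Benjamini-Hochberg adjustment over those rows and a threshold of 0.05. With 2 libraries on either side an exact permutation test has 0.333 as its smallest p, so significance depends on limma's pooled spread. Tested on simulated data of 9485 rows, the script found 98% of 50 genes given a 1.5-fold change, with 3 false calls. Few rows were changed there, 50 at each of 1.5-, 2-, 4- and 8-fold, whereas 58.4% of rows were called in these data. Noise was drawn independently for each library from the spread within groups, so 3 is not a false-call rate for these data. Changes were given only to rows with a control mean above 2 on the log2(FPKM + 1) scale. Recovery was not broken down by level, and for members below that limit, such as Usp44, it is not known. For a symbol listed more than once, the row of higher mean was used. Intervals are limma's 95% intervals for single genes. Depth in reads is unknown, and relative depth came from the steps between the lowest FPKM.

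Members, role groups and partner lists were chosen with earlier results of these data known, and roles are textbook knowledge. Named genes were the 10 members highest in level, the 12 largest differences per direction past the threshold, a fixed set of members and up to 3 genes per partner list. Further members, and Sumo3, Senp2, Senp6, Senp7, Uba3, Nae1, Nedd8, Senp8, Rps27a, Eny2, G3bp1 and Cops5, were named after their values were seen. Some genes that enter the counts and sums are not reported here by name. Processing alternatives covered the pseudocount, the low-value filter, quantile and size-factor scaling, eBayes options, a replicate block and the omission of single libraries. RefSeq (GRCr8) held 81 members by symbol and 1 more by synonym. Figures were drawn with Python 3.11.15 and matplotlib 3.10.9.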

Additional observations from a re-analysis of the deposited data

How the results depend on the processing

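The counts of members called ranged from 9 to 12 higher and from 23 to 31 lower over the alternatives run, against 10 and 30. Leaving out each library gave from 3 to 5 conjugating enzymes higher against 3, and a median difference of the members from -0.19 to -0.15 against -0.19. With a pseudocount of 5 that median was -0.13, a move larger than its SD of 0.0317 over the 4 pairs of libraries, and a larger pseudocount shrinks log2 differences by construction. None of the members changed direction past the threshold. Of the 40 calls 10 were lost under at least 1 alternative, at most 7 of them under any setting (control 1 or IL-22 2 left out), and 10 further members passed under at least 1. With the replicate number as a block 12 members were higher and 31 lower. The correlation of the deviations of same-numbered libraries was -0.00197 across genes, and with 2 pairs this does not show that the numbers pair the samples. In fits that omit a library, the spread of the remaining single library is taken from the opposite group. The median difference of all tested rows was -0.02 as deposited, 0.00 with size factors and -0.03 with quantile normalization. With 2 libraries per group, the members with the widest intervals were Ube2d2 and Ube2e2, whose libraries of one group differed most.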
